A study of Mus musculus with 8 samples.

Results

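The genes described here are the coreceptors Cd4, Cd8a and Cd8b1 and 5 transcription factors of the T cell lineages, Zbtb7b, Runx3, Runx1, Gata3 and Eomes. They were taken by name, with no threshold on a measured value, though earlier results of these data were known, and make up 8 of the 52636 genes in the count table. All 8 were found by symbol in GENCODE M21 and all 8 had counts in every column. The RNA came from unsorted immune cells of mouse spleen and lymph node. The mice were 35 to 55 days old and showed no disease signs. In every group the cells were cultured for 4 days with anti-CD3 and the cytokines IL-6, IL-12, IL-23 and TGF-β, a TH1/TH17 stimulation. The 4 groups are males labelled TCR1640, females labelled TCR1640, males labelled SJL/J and females labelled SJL/J (wild type), each with 2 count columns. TCR1640 mice are SJL/J mice with a transgenic T cell receptor that recognises myelin, and the labels give neither the promoter of the transgene nor the number of mice behind a library.

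CD4 and CD8 are coreceptors that bind MHC class II and class I molecules beside the T cell receptor and bring the kinase Lck to it. CD8 is a pair of chains, α from Cd8a and β from Cd8b1, and conventional CD8 T cells carry the αβ pair. In the thymus Zbtb7b (ThPOK) holds cells in the CD4 lineage, Runx3 drives the CD8 lineage and silences Cd4, Gata3 acts ahead of Zbtb7b and later directs Th2 cells, Runx1 works in both lineages, and Eomes shapes memory CD8 T cells and NK cells.

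Column totals ran from 3765291 to 5116467 counts. Within a group the 2 columns differed by little more than sampling noise, with a chi-square per degree of freedom of 1.05 to 1.08 over genes, against 3.12 to 17.1 between columns of different groups. They may be repeat runs of 1 library, and were summed and counted as 1 sample, so a comparison of 2 groups has no replicate check, and its 95% interval covers counting error only. The sex labels matched Xist and the Y-linked genes in all 8 columns. The receptor genes went against the strain labels. Trbv2 took 20.6% and 19.7% of beta variable segment counts in males and females labelled TCR1640, against 63.1% and 58.3% in males and females labelled SJL/J. Among alpha segments, the share of the Trav12 family was 5.96% and 5.98% in males and females labelled TCR1640, against 54.7% and 53.2% in males and females labelled SJL/J. A receptor transgene narrows this repertoire, and the narrow one lay in the libraries labelled SJL/J. Strain names below are therefore labels of libraries, and each direction between strains holds for the labels alone.

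RUNX proteins bind a core motif, TGTGGT, or ACCACA when read on the other strand. RefSeq promoter windows on GRCm38.p6, from 250 bases before to 50 after a start site, held 6 of the 8 genes. The distal windows of Runx3 and Runx1 are shown. They were chosen because these 2 paralogs differed in opposite directions between strain labels and because both windows carry the motif. Each reads 5′ to 3′ in the sense of its gene, with the matches in capitals. Runx3 lies on the plus strand at chr4:135120395-135120694 and Runx1 on the minus strand at chr16:92826025-92826324.
Runx3 distal window: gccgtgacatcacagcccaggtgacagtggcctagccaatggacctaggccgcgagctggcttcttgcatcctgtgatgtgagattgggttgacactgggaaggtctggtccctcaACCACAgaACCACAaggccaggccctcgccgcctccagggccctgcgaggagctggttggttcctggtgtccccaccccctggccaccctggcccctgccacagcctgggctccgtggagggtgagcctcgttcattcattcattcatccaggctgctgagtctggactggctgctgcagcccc
Runx1 distal window: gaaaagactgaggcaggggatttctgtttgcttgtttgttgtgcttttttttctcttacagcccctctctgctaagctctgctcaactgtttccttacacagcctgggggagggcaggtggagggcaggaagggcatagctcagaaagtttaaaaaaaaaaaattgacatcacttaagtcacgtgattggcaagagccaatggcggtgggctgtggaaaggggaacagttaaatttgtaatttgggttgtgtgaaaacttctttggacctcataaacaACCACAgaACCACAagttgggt

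The longest run of bases that the 2 windows share is 18 long, caACCACAgaACCACAag, and it holds 2 copies of the motif. Its first base lies at position -136 from the listed start site of Runx3 and at position 26 from that of Runx1. Of all 32851 mouse windows in the table, 16.8% held the motif at least once and 1.81% held 2 or more matches. One Zbtb7b window held 1 match and the other held 0. The other listed windows of Runx3 and Runx1, at chr4:135152295-135152594 and chr16:92697280-92697579, also held 0. The listed windows of Cd8a, Gata3 and Eomes held 0 as well. A match is a description of the letters, not a binding site.

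Both CD8 chains were far higher in the libraries labelled TCR1640 than in those labelled SJL/J, in males and in females. Cd8a encodes the α chain (ENSMUSG00000053977, chromosome 6, 71373427 to 71379173 on GRCm38, plus strand). It had 838 and 861 counts in the male columns labelled TCR1640 and 567 and 647 in the female ones, against 103 and 114 in males labelled SJL/J and 110 and 83 in females labelled SJL/J. Both sexes were high under the TCR1640 label and low under the SJL/J label. In CPM, counts scaled to a common library size with TMM factors, Cd8a stood at 171 in males and 156 in females labelled TCR1640, against 27.7 in males and 23.2 in females labelled SJL/J. The log2 ratio between labels was 2.76 in females (2.53 to 2.98) and 2.63 in males (2.42 to 2.84), or 6.75-fold and 6.19-fold.

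Cd8b1, the β chain gene (chromosome 6, 71322788 to 71337494, plus strand), ends 35.9 kb before Cd8a starts on the same strand. Its counts were 533 and 580 in males and 461 and 453 in females labelled TCR1640, against 98 and 87 in males and 89 and 80 in females labelled SJL/J. As with Cd8a, both sexes were high under the TCR1640 label. The log2 ratio was 2.54 in females (2.30 to 2.78) and 2.25 in males (2.02 to 2.48). The α chain had 1.53 counts per β chain count in males labelled TCR1640 (1.41 to 1.65) and 1.33 in females labelled TCR1640 (1.22 to 1.45), against 1.17 in males (0.960 to 1.43) and 1.14 in females (0.924 to 1.41) labelled SJL/J. Between labels this ratio differed by 1.30 times in males (exact conditional interval 1.05 to 1.61) and by 1.16 times in females, where the interval of 0.924 to 1.46 includes equality.

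Cd4 went the other way and by much less. The gene (chromosome 6, 124864692 to 124888221, minus strand) had 842 and 850 counts in males and 621 and 623 in females labelled TCR1640, against 901 and 969 in males and 943 and 1018 in females labelled SJL/J. As libraries differ in depth, the scaled levels are the fair comparison: 170 and 160 CPM in males and females labelled TCR1640, against 238 and 235 CPM in males and females labelled SJL/J. The log2 ratio was -0.55 in females (-0.66 to -0.45) and -0.48 in males (-0.58 to -0.39). In these bulk libraries, fewer cells of a type and less RNA per cell cannot be told apart.

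**Figure D1:**
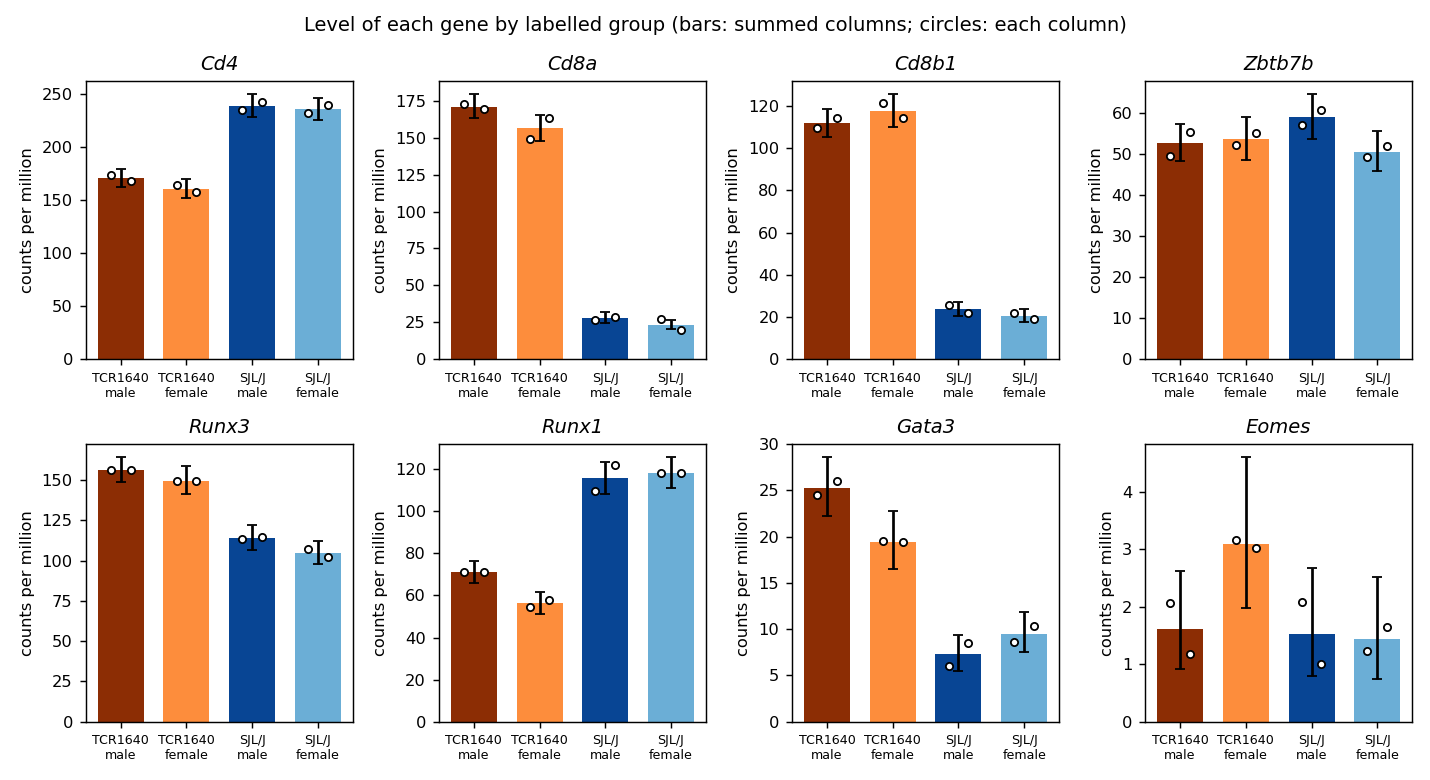
Level of each gene in CPM on TMM-scaled libraries (y axis) by labelled group (x axis). Bars are the summed columns with exact 95% counting intervals and circles the 2 columns of a group; Cd8a stands at 171 and 156 in the TCR1640 labels against 27.7 and 23.2 in the SJL/J labels, while Zbtb7b lies between 50.7 and 59.0 in all 4 groups.

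The balance of the coreceptors within a library needs no scaling factor. For each Cd4 count there were 1.00 Cd8a counts in males labelled TCR1640 (0.938 to 1.07) and 0.976 in females labelled TCR1640 (0.901 to 1.06), against 0.116 in males (0.100 to 0.134) and 0.0984 in females (0.0844 to 0.114) labelled SJL/J. Between labels the ratio differed 9.91-fold in females (8.37 to 11.8) and 8.65-fold in males (7.39 to 10.2). Cd8b1 gave 0.658 counts per Cd4 count in males and 0.735 in females labelled TCR1640, against 0.0989 in males and 0.0862 in females labelled SJL/J. That was an 8.52-fold difference in females (7.11 to 10.3) and a 6.65-fold one in males (5.60 to 7.92).

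Column by column the ratio of Cd8a to Cd4 lay between 0.913 and 1.04 in the columns labelled TCR1640 and between 0.0815 and 0.118 in those labelled SJL/J. On a fold scale, the widest gap between columns of 1 group was in females labelled SJL/J, at 0.117 and 0.0815. Both lie outside the counting interval of their sum, though a single column has fewer counts and a wider interval. The gap between strain labels was much wider than this gap between columns. Males and females of 1 label did not differ beyond counting error: the male ratio over the female one was 1.03 (0.926 to 1.14) in the TCR1640 labels and 1.18 (0.957 to 1.45) in the SJL/J labels.

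**Figure D2:**
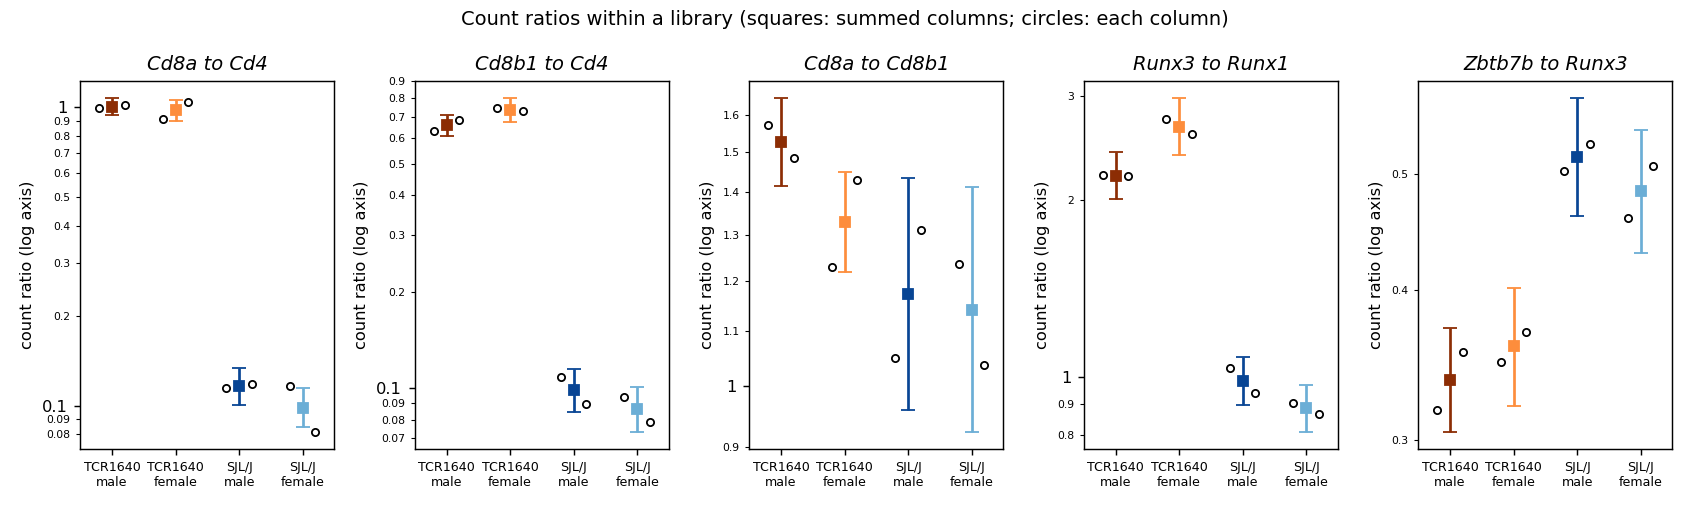
Count ratios of 5 gene pairs within a library (log y axis) by labelled group (x axis). Squares are summed columns with exact 95% counting intervals and circles single columns. Cd8a per Cd4 count is 1.00 and 0.976 in the TCR1640 labels against 0.116 and 0.0984 in the SJL/J labels. The Runx3 to Runx1 ratio is above 2 in the first and below 1 in the second, without the counts of Gm26626 opposite Runx1. With these counts added to Runx1 it lies below 1 under both labels (not drawn).

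Among the transcription factors, Runx3 was higher and Runx1 lower in the libraries labelled TCR1640. Runx3 (chromosome 4, 135120652 to 135177990, plus strand) had 759 and 793 counts in males and 568 and 593 in females labelled TCR1640, against 437 and 458 in males and 437 and 435 in females labelled SJL/J. In CPM it stood at 156 and 150 in males and females labelled TCR1640, against 114 and 105 in males and females labelled SJL/J. Its log2 ratio was 0.51 in females (0.39 to 0.64) and 0.45 in males (0.33 to 0.57).

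Runx1 (chromosome 16, 92601466 to 92826149, minus strand) had 345 and 361 counts in males and 207 and 229 in females labelled TCR1640, against 421 and 487 in males and 482 and 502 in females labelled SJL/J. Its log2 ratio was -1.07 in females (-1.24 to -0.91) and -0.70 in males (-0.85 to -0.56). There were 2.20 Runx3 counts per Runx1 count in males and 2.66 in females labelled TCR1640, against 0.986 in males and 0.886 in females labelled SJL/J. The paralog ratio thus differed 3.00-fold between labels in females (2.60 to 3.48) and 2.23-fold in males (1.96 to 2.54). Runx1 shares exon sequence with Gm26626 on the other strand, which had more counts than Runx1 in each group. Adding these counts put the log2 ratio of Runx1 at -0.92 in females and -0.61 in males. With them added, Runx1 had more counts than Runx3 in each group, so the paralog ratio then lay below 1 under both labels. Its size was not computed. In the TCR1640 labels, whether the ratio lies above or below 1 thus depends on whether these counts belong to Runx1.

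For Zbtb7b, the CD4 lineage factor, no difference between labels went beyond counting error. The gene (chromosome 3, 89377644 to 89394776, minus strand) stood at 52.7 CPM in males and 53.7 in females labelled TCR1640, against 59.0 in males and 50.7 in females labelled SJL/J. Its log2 ratio was 0.08 in females (-0.11 to 0.28) and -0.16 in males (-0.35 to 0.02), and both intervals include equality. Set against Runx3 it was lower in the TCR1640 labels, with 0.337 and 0.359 Zbtb7b counts per Runx3 count in males and females, against 0.517 and 0.484 in males and females labelled SJL/J.

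Gata3 (chromosome 2, 9857078 to 9890034, minus strand) had 119 and 132 counts in males and 74 and 77 in females labelled TCR1640, against 23 and 34 in males and 35 and 44 in females labelled SJL/J. Both sexes were higher under the TCR1640 label, the males most. The log2 ratio was 1.80 in males (1.38 to 2.24) and 1.04 in females (0.63 to 1.45), and without the first column of females labelled SJL/J the female value was 0.89.

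Eomes (chromosome 9, 118478212 to 118486132, plus strand) was near the limit of these libraries. It had 10 and 6 counts in males and 12 and 12 in females labelled TCR1640, against 8 and 4 in males and 5 and 7 in females labelled SJL/J. The female log2 ratio of 1.10 had an interval of 0.05 to 2.24 and the male one of 0.08 an interval of -1.10 to 1.29, which holds a 2-fold difference in either direction.

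Part of these genes share exon sequence with a feature on the other strand, and the strand setting of the counting is not given in the sources used here. Over 985 pairs of a coding gene and such a noncoding feature, the noncoding one had more counts in 75.7% (exact 95% interval 72.9 to 78.4). Gm26626, opposite Runx1, had 1472 and 1077 counts in males and females labelled TCR1640, against 1727 and 2085 in males and females labelled SJL/J, more than Runx1 itself in each group. Gm13256, opposite Gata3, had 606 and 425 counts in males and females labelled TCR1640, against 93 and 146 in males and females labelled SJL/J, and also exceeded its gene. Both went the way of the gene, with log2 ratios of -0.85 in females and -0.57 in males for Gm26626 and 1.64 in females and 2.36 in males for Gm13256. Gm33460, opposite Eomes, had 31 and 34 counts in males and females labelled TCR1640, against 12 and 18 in males and females labelled SJL/J. Gm15417, opposite Zbtb7b, had at most 20 counts in a group. Cd4, Cd8a, Cd8b1 and Runx3 have no such feature in the annotation. Values of the 4 overlapped genes are uncertain. The share of counts that came from a gene's own strand was not tested for any gene. That includes Cd4, Cd8a, Cd8b1 and Runx3, so their levels and ratios carry this limit too.

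Genes are called apart here from 2-fold upward, given 50 or more counts over both groups and an interval that leaves out equality. All but Eomes met the floor. Between labels in females, Cd8a, Cd8b1 and Gata3 were apart and higher, where 3.65% of 13984 genes were higher, and Runx1 was apart and lower, where 3.88% were, so 4 of the 8 were apart where 7.54% of all were. In males Cd8a, Cd8b1 and Gata3 were apart and higher, where 4.98% of 14247 genes were, and none of the 8 was apart and lower, where 4.89% were, which makes 3 of the 8 where 9.88% of all were. The median log2 ratio of the 8 genes was 0.78 in females and 0.26 in males, beside 0.02 and 0.01 over all genes compared. With the opposite-strand counts added, Runx1 in females stood at -0.92 and no longer met the 2-fold rule. Gata3 in females stood at 1.46 with them added, but without the first column of females labelled SJL/J it did not reach 2-fold.

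Averaged over sexes, an additive edgeR quasi-likelihood fit of strain label and sex to the 4 summed samples called 6 of the 8 genes. Its 1 residual degree of freedom is the part of a strain difference that differs between sexes, so its SE and p do not measure spread between mice. Of 17261 genes, 13.4% rose and 13.1% fell in the TCR1640 labels, 26.5% in all. Cd8a rose by 2.69 on the log2 scale (SE 0.14, edgeR adjusted p = 5.57e-75), Cd8b1 by 2.39 (SE 0.15, adjusted p = 8.16e-56), Gata3 by 1.41 (SE 0.19, adjusted p = 1.19e-11) and Runx3 by 0.48 (SE 0.13, adjusted p = 0.000974), each higher in both sexes. Runx1 fell by 0.88 (SE 0.13, edgeR adjusted p = 7.94e-10) and Cd4 fell by 0.52 (SE 0.12, adjusted p = 0.000191), each lower in both sexes. Zbtb7b at -0.04 (SE 0.14, edgeR adjusted p = 0.871) and Eomes at 0.62 (SE 0.48, adjusted p = 0.368) did not pass. The Runx3 call was lost with DESeq2 (adjusted p = 0.0627), and the other 5 calls held with it.

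**Figure D3:**
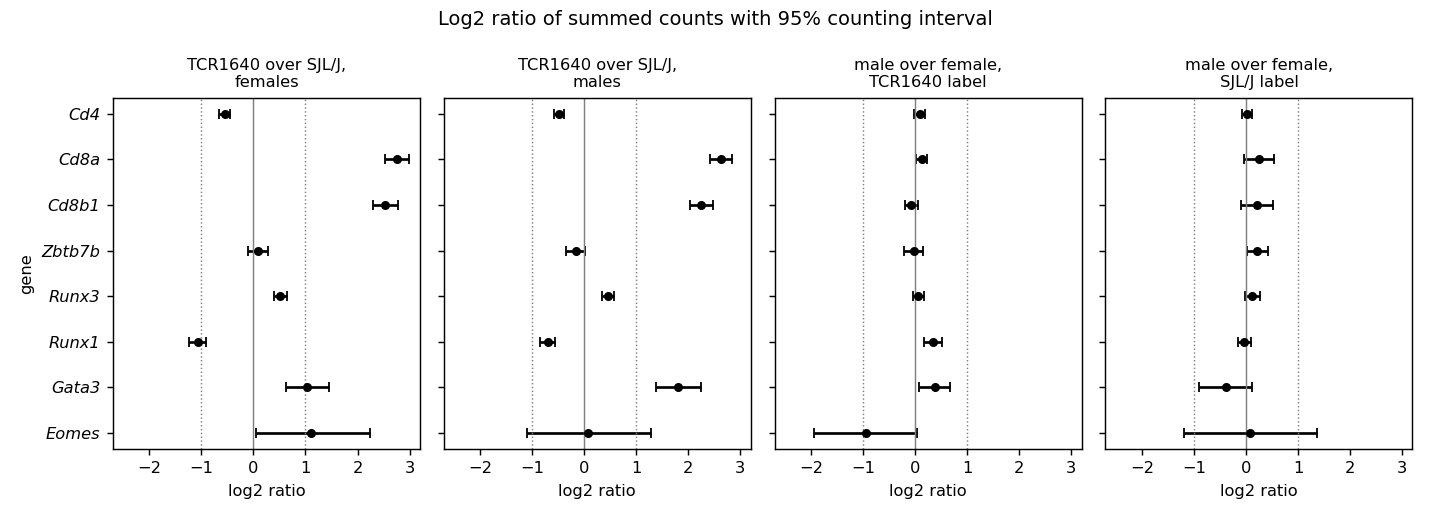
Log2 ratio of summed counts (x axis) for each gene (y axis) in the 4 comparisons of 2 groups, with exact 95% counting intervals; dotted lines mark a 2-fold difference. Cd8a (2.76 and 2.63), Cd8b1 (2.54 and 2.25) and Gata3 (1.04 and 1.80) lie right of the 2-fold line in both strain panels, and no gene with at least 50 counts passes it in the sex panels.

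Genes of the T cell receptor complex differed between the labels to unlike extents. The summed level of Cd3d, Cd3e, Cd3g and Cd247 was 1021 and 969 CPM in males and females labelled TCR1640, against 778 and 722 CPM in males and females labelled SJL/J. In the additive edgeR fit the log2 changes were 0.40, 0.69, 0.54 and 0.18 in that order. The 9 listed genes of the T cell complex had a median of 0.24, with Cd28 at -0.40, beside 0.01 over all genes. Cd3e and Cd247 overlap features on the other strand, so the strand limit applies to this scale too. Per count of these 4 genes, Cd8a still stood at 2.33 in females and 2.24 in males on the log2 scale, and Cd4 moved to -0.98 in females and -0.88 in males. On that scale the Runx3 ratios, 0.09 in females (-0.04 to 0.22) and 0.06 in males (-0.06 to 0.18), had intervals that include equality. Zbtb7b was then lower in the TCR1640 labels, at -0.34 in females (-0.54 to -0.14) and -0.56 in males (-0.74 to -0.37), and Gata3 stood at 0.61 in females and 1.41 in males. Runx1 stood at -1.50 in females and -1.10 in males. Several results therefore turn on whether levels are set against all RNA or against the CD3 chains: the direction for Zbtb7b, the difference for Runx3, and the 2-fold mark, which Runx1 passes in males and Gata3 no longer reaches in females on the CD3 scale.

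Per kilobase of exon the order of levels changed with the label. In the TCR1640 labels Cd8b1 led, at 75.6 CPM per kb in males and 79.4 in females, then Cd8a at 47.1 and 43.0, Cd4 at 42.3 and 39.8 and Runx3 at 31.2 and 29.9. The intervals of Cd8a and Cd4 overlapped in females and were apart in males, at 44.8 to 49.3 for Cd8a and 40.3 to 44.3 for Cd4. In the SJL/J labels Cd4 led at 59.1 in males and 58.4 in females, followed by Runx3 at 22.8 and 20.9 and Cd8b1 at 15.9 and 13.7. Zbtb7b and Runx1 had overlapping intervals there, as did Gata3 and Runx1 in the TCR1640 labels, and Eomes came last in all 4 groups at 0.347 to 0.744 CPM per kb. These levels between genes rest on the strand limit given above.

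No gene of the 8 was called between males and females. In the additive edgeR fit 0.139% of all genes rose and 0.962% fell in males, 1.1% together, and DESeq2 also called none of the 8. The estimates ran from -0.51 for Eomes (adjusted p = 0.827) to 0.18 for Cd8a (SE 0.14, adjusted p = 0.758), and none of the 8 had an unadjusted p under 0.05 (the lowest was 0.189), where 1637 of 17261 genes did. With the 8 columns taken as separate samples, Runx1 passed at 0.16 (edgeR adjusted p = 0.0383). In the comparisons of 2 groups, none of the 7 genes with enough counts was apart, where 0.526% of genes were apart and higher and 1.1% apart and lower in males of the TCR1640 labels (1.63% together), and 0.501% and 0.758% in males of the SJL/J labels (1.26% together).

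By counting error alone, the male to female ratios of Gata3 and Runx1 differed between the 2 strain labels. Gata3 stood at 0.38 in the TCR1640 labels (0.08 to 0.68) and at -0.38 in the SJL/J labels (-0.90 to 0.13), a difference of 0.76 with a normal counting interval of 0.19 to 1.33. Gm13256 opposite to it stood at 0.16 (-0.02 to 0.34) in the TCR1640 labels and -0.56 (-0.96 to -0.18) in the SJL/J labels. Runx1 stood at 0.34 (0.17 to 0.52) in the TCR1640 labels and -0.03 (-0.16 to 0.10) in the SJL/J labels, a difference of 0.37 (0.15 to 0.59). With 1 sample a group, spread between mice could not be set against either difference. The share of all genes with such an interval was not counted. Columns of different groups differed beyond counting error over genes, with a chi-square per degree of freedom of 3.12 to 17.1. Neither difference can therefore be called particular to these genes. For the other 6 genes the interval of the difference included 0, with the widest for Eomes, -2.50 to 0.44.

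Of 22 other genes of the CD4 and CD8 lineage choice, 7 rose and 3 fell between labels in the additive edgeR fit and 12 did not pass. Of all genes tested 13.4% rose and 13.1% fell, so the share that fell is near that of all genes. The median log2 change of the list was 0.17, beside 0.01 over all genes. Tcf7 and Lef1, partner factors of naive T cells that also act ahead of the lineage choice, rose by 1.99 and 1.64. Tcf7 had 4831 and 3372 counts in males and females labelled TCR1640, against 840 and 1048 in males and females labelled SJL/J. Myb, a factor of immature and dividing lymphoid cells, fell by 2.09 and had 237 and 186 counts in males and females labelled TCR1640, against 769 and 883 in males and females labelled SJL/J, and it overlaps a feature on the other strand, as Lef1 and Tox do. Cbfb, the shared partner of the RUNX proteins, stood at -0.05 (edgeR adjusted p = 0.843), and Tox, which acts before Zbtb7b, at 0.69 (adjusted p = 0.0590). Runx2, the third paralog, fell by 0.77 and is also overlapped. No gene of this list passed for sex.

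Of 15 factors of helper and effector fates, 2 rose, 5 fell and 8 did not pass, with a median of -0.12, beside 13.4% and 13.1% of all genes and a median of 0.01. The share that rose is near that of all genes. The 2 that rose were Id3, by 1.07, and Bcl6, the factor of follicular helper cells, by 0.95. Zeb2, a factor of effector CD8 cells, fell by 1.33 and Batf, a factor of Th17 and effector cells, fell by 0.85. Tbx21, the Th1 factor and close relative of Eomes, stood at -0.34 (edgeR adjusted p = 0.106). Bcl6 and Zeb2 overlap features on the other strand.

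Of 15 listed cytotoxic genes 12 were tested, of which 8 rose, 1 fell and 3 did not pass, with a median of 0.82. Over all genes tested 13.4% rose and 13.1% fell, with a median of 0.01. The 3 not tested had 0 to 5 counts in each group. Crtam, a receptor of activated CD8 and NK cells, rose by 2.22 (SE 0.41), with 56 and 42 counts in males and females labelled TCR1640 against 12 and 7 in males and females labelled SJL/J. Fasl rose by 2.05 and Klrd1, the CD94 receptor chain, by 1.81. Prf1 and Gzmb, at 0.20 and 0.07 (edgeR adjusted p = 0.314 and 0.740), did not pass between labels. Prf1 was the 1 gene of this list that passed for sex, higher in males by 0.68 (adjusted p = 0.000513).

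**Figure D4:**
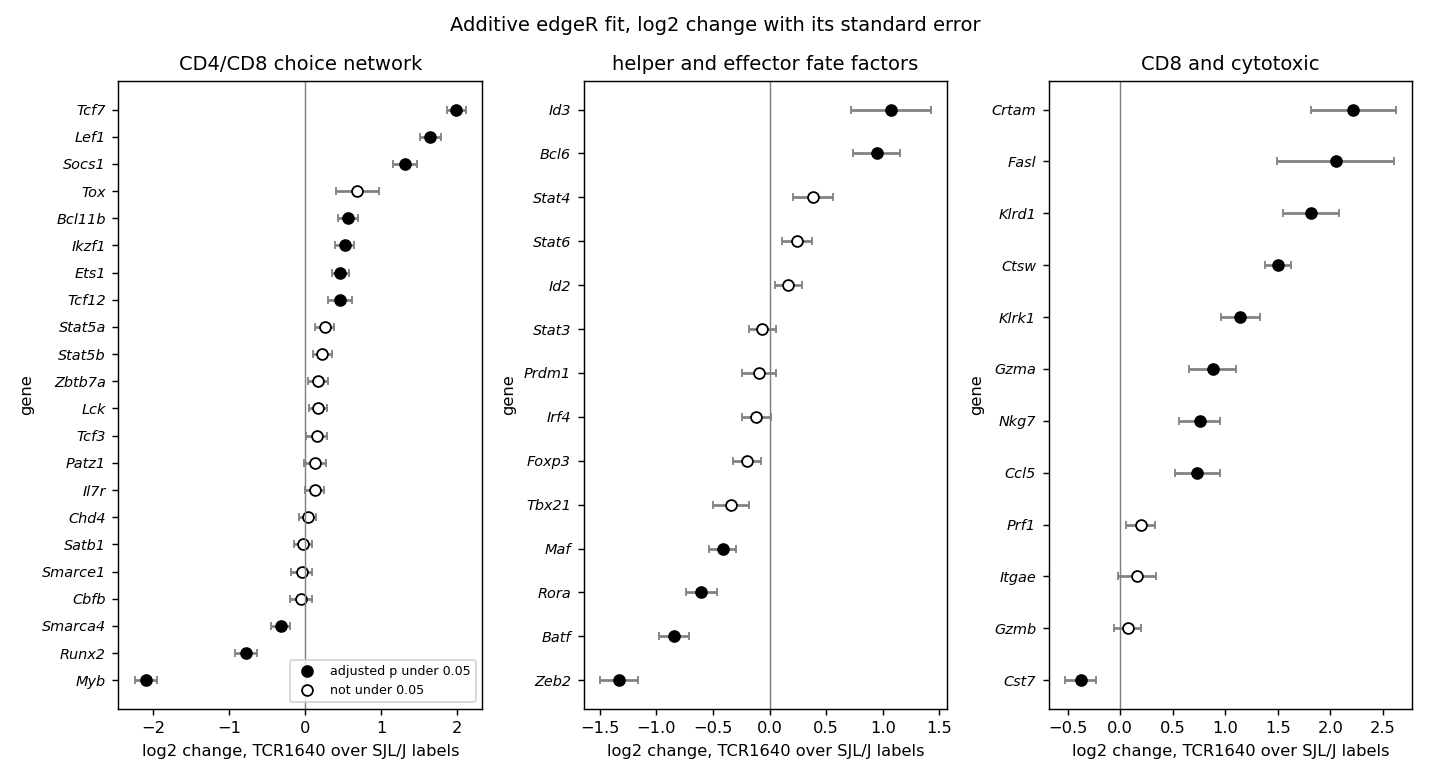
Log2 change between strain labels in the additive edgeR fit (x axis, TCR1640 over SJL/J, bars are the SE) for tested genes of 3 lists (y axis), with 14 of the 15 fate factors drawn. Filled points passed at an adjusted p of 0.05; the choice network runs from Myb at -2.09 to Tcf7 at 1.99 and the cytotoxic list from Cst7 at -0.38 to Crtam at 2.22.

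Other cells could carry some of these genes, and their markers were measured beside them. The strand limit holds for these markers too, so a low marker count need not mean few such cells. NK cells express Eomes and Runx3. The 6 NK markers were too low to test and summed to 0.907 and 1.55 CPM in males and females labelled TCR1640, against 1.40 and 1.20 CPM in males and females labelled SJL/J, with 2 of the 6, Klra8 and Klra7, at 0 in all. Dendritic cells can carry CD8α: Clec9a had 1 count in all libraries together and Siglech 1, while Xcr1 made up most of that list's 323 and 388 CPM in males and females labelled TCR1640, against 342 and 352 CPM in males and females labelled SJL/J. None of its 3 tested genes passed between labels, where 26.5% of all genes did. Megakaryocytes and mast cells use Runx1, and their listed markers other than Kit fell as Runx1 did, where 13.1% of all genes fell. The 5 megakaryocyte and platelet genes summed to 11.2 and 10.3 CPM in males and females labelled TCR1640, against 254 and 148 CPM in males and females labelled SJL/J, and all 5 fell. Ppbp was at 0 in both TCR1640 labels. Among 7 genes of mast cells and basophils Kit rose and the other 6 fell, and their sum was 70.2 and 65.8 CPM in males and females labelled TCR1640, against 116 and 97.3 CPM in males and females labelled SJL/J. The part of these cells in the Runx1 difference was not tested. Group 2 innate lymphoid cells express Gata3: of their 6 genes 2 were tested, and Il1rl1 fell by 2.25 while Il17rb, which overlaps a feature on the other strand, rose by 0.91. Their sum was 14.5 and 15.3 CPM in males and females labelled TCR1640, against 21.7 and 27.5 CPM in males and females labelled SJL/J, with 2 of 6, Il13 and Klrg1, at 0 in the TCR1640 labels.

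The genes whose pattern over the 4 groups lay nearest to each member were found among 10267 genes, by the Euclidean distance of centred log2 CPM values. Among the nearest to Cd8a were Ggt1 at 0.279 and B630019A10Rik at 0.381, and among the nearest to Cd8b1 were Neurl3 at 0.253 and Igfbp4 at 0.274. Nearest to Cd4 were Psmb7, Hdc and Tacc1, at 0.0239 to 0.0269, and nearest to Zbtb7b were Rps3a1, Cnbp and Gm15459, at 0.0218 to 0.0298. Micall1, Igbp1 and Crlf3 lay nearest to Runx3, Ybx3, Cdca7 and Dusp4 to Runx1, and Gprasp1, Tha1 and Fam189b to Gata3. For Eomes they were Gm48899, Scai and Bbip1. With 4 values per gene, many genes lie close to a flat pattern.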

How the data were processed

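RNA was counted per gene in 8 columns, 2 for each of 4 groups set by the sample titles. The authors deposited raw whole-number counts for each Ensembl identifier. Bowtie2, HTSeq, bcl2fastq 2.17 and mm10 are named in the submitters' processing notes, and the labels' protocols give a stranded KAPA mRNA kit with 500 ng of RNA. Neither the annotation release nor the strand setting of the counting is stated there. Symbols, exons and positions came from GENCODE M21 on GRCm38, and 147 identifiers were not in it.

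The 2 columns of each group were summed. Log2 ratios of summed counts used TMM-scaled library sizes from edgeR 4.0.16 (R 4.3.3) with exact Clopper-Pearson 95% intervals. These cover counting error only, since reads without molecular identifiers are not independent molecules. The additive quasi-likelihood fit was run after filterByExpr, with p-values (two-sided) adjusted by Benjamini-Hochberg over 17261 genes and called at 0.05. An SE is the absolute log2 change divided by the square root of the F statistic. DESeq2 1.42.0 was an alternative. Ratios of ratios used the exact conditional interval of Fisher's test, and differences of ratios a normal counting interval. Genes named from each list were up to 3 with the largest change between labels, beside all 8 members; Cbfb, Tox, Runx2, Batf, Tbx21, Prf1, Gzmb, Cst7, Ctla4 and some other-cell markers were named after their values were seen. Nearest genes had a mean log2 CPM of at least 3, with a pseudocount of 0.5. Some genes that these rules name are not reported here. The fits and intervals were tested on simulated data. The members and lists were chosen with earlier results of these data known.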

Additional observations from a re-analysis of the deposited data

How the results depend on the processing

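Apart from the CD3 scale, scaling, filters and columns moved counts of genes more than the members. Levels per CD3 count moved most members between strain labels, as with the log2 ratio of Runx3 in females, from 0.51 to 0.09. For genes apart, requiring a mean log2 CPM of at least 3 gave 500 between labels in females, 679 in males, 63 between sexes in the TCR1640 labels and 31 in the SJL/J labels, in place of 1054, 1407, 229 and 176. Without a floor these were 2120, 2725, 846 and 727. In the additive fit the strain label calls, 4572, became 1410 with DESeq2, and 7821 with 8 separate columns. The sex calls, 190, became 108 with upper-quartile factors, 55 with TMM on genes without opposite-strand overlap, 118 without a filter, 7 with DESeq2 and 2759 with 8 columns. With the replicate number as a block in the 8 columns, calls were 7857 for strain label and 2875 for sex. The difference of the second from the first column correlated at -0.00 to 0.03 between groups, over 6 pairs of groups and 10274 genes. This difference is almost all counting noise (chi-square per degree of freedom 1.05 to 1.08). A shared effect of same-numbered columns could therefore also leave the correlations low. Whether the number pairs columns cannot be decided from them.

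Leaving out 1 column gave 3553 to 4330 strain label calls and 8 to 143 sex calls. The sex calls were 96 and 8 without the first or second male column labelled TCR1640, 123 and 45 without the female ones, 81 and 53 without the male ones labelled SJL/J and 22 without the second female one. The Cd8a to Cd4 ratio in females labelled SJL/J was 0.0815 or 0.117 from 1 column. Among members, 5 of 6 strain calls held in every alternative of the additive fit, with Runx3 lost under DESeq2. With 8 columns Runx1 passed for sex at 0.16 (adjusted p = 0.0383, and 0.0350 with the block), a fit that takes columns as samples. Uncalled sex values turned sign near 0: Gata3 was -0.00240 with 8 columns and -0.00250 with the block, and Cd8b1 ran from -0.0123 without the first male column labelled SJL/J to 0.0876 without the second one, with -0.00397 without the second female one. Depth limits Eomes.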

Other observations

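Of 9 listed genes of CD4 helper cells 4 rose and 3 fell between strain labels in the additive edgeR fit, and 2 did not pass, where 13.4% of all genes tested rose and 13.1% fell. Izumo1r, the folate receptor 4 of regulatory and anergic CD4 cells, rose by 1.26, with 454 and 260 counts in males and females labelled TCR1640 against 140 and 125 in males and females labelled SJL/J. Cxcr5, the homing receptor of follicular helper cells, rose by 0.94 and overlaps a feature on the other strand. Ctla4, a brake on activated T cells, fell by 0.89, with 1873 and 1520 counts in males and females labelled TCR1640 against 3006 and 2741 in males and females labelled SJL/J. Cd40lg fell by 1.17 on 11 to 25 counts a group.

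Trdc, the constant gene of the T cell receptor delta chain, fell by 2.11 (SE 0.18, edgeR adjusted p = 1.55e-30), with 76 and 77 counts in males and females labelled TCR1640 against 258 and 358 in males and females labelled SJL/J. It overlaps a feature on the other strand. Sox13 and Blk, the other 2 tested genes of gamma-delta T cells, did not pass. Of 5 tested B cell genes 3 rose, Cd79b by 2.18, Pax5 by 0.95 and Cd79a by 0.73, and 2 did not pass, beside 13.4% of all genes that rose. Pax5 overlaps a feature on the other strand. Of 4 tested monocyte and macrophage genes 1 passed, where 26.5% of all genes did, so this share is near that of all genes. It was Lyz2, which fell by 4.39, with 2 and 3 counts in males and females labelled TCR1640 against 61 and 38 in males and females labelled SJL/J.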
